A study of Mus musculus with 10 samples.

Results

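The elongases and desaturases described here are 9 genes, Elovl1, Elovl2, Elovl3, Elovl5, Elovl7, Fads1, Fads2, Fads3 and Scd2, of 56748 genes in the table of read counts. They were taken by name, as very long chain elongases and desaturases outside the core lipogenic genes. The naming rule uses no measured value, but the set was drawn up with earlier results of these data known. The table comes from RNA sequencing of 10 mouse liver samples, 5 libraries from mice with a floxed Acss2 gene (genotype ACSS2-flox, here flox) and 5 from mice in which Acss2 was knocked out in liver cells (genotype ACSS2-HKO, here HKO). Both groups ate a high-fat, high-fructose diet for 4 months. Acss2 encodes the enzyme that makes acetyl-CoA from acetate in the cytosol and nucleus, and the series asks what its loss in liver cells does in diet-induced steatohepatitis. The sources used here do not give the Cre driver, strain, age or sex.

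Fatty acids made or eaten by a mouse are lengthened in the endoplasmic reticulum by a cycle of reactions. An ELOVL enzyme performs the condensation that opens the cycle and selects the chain that is lengthened. Desaturases of the FADS and SCD families add double bonds with electrons passed on by cytochrome b5. In liver, FADS2, ELOVL5, FADS1 and ELOVL2 act in turn to convert the essential linoleic and alpha-linolenic acids of the diet into arachidonic and docosahexaenoic acid. ELOVL1, ELOVL3 and ELOVL7 lengthen saturated and monounsaturated chains, including those of sphingolipids, and several of these genes are targets of the lipogenic transcription factor SREBP1c, of LXR or of PPAR-alpha.

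Total counts per library ran from 15413648 to 19275358, and levels are given as CPM, the read count scaled to library size with TMM factors. Per-library values below are in the order of replicates 1 to 5. The targeted gene Acss2 was still read in HKO (52.8, 59.0, 43.8, 40.2, 51.4 CPM), and in flox it stood at 73.2, 86.9, 56.5, 128.8, 58.6 CPM. HKO replicate 2 lay above flox replicates 3 and 5, and Acss2 was not called (log2 fold change -0.71 ± 0.21 SE, edgeR adjusted p = 0.0858). Gss overlaps Acss2 on the other strand, with 92.4% as many counts, so reads of the pair may not be told apart. The 12 hepatocyte markers summed to 93277 to 143089 CPM in flox and to 116471 to 150104 CPM in HKO. The 14 macrophage and Kupffer cell markers all fell, from a sum of 340.0 to 835.6 CPM in flox to 126.2 to 263.7 CPM in HKO. Flox replicate 5 stood apart, with the lowest hepatocyte sum, the highest macrophage sum, and 238.6 CPM of stellate cell and fibroblast markers against at most 93.5 CPM in any other library.

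Of the 9 genes, 8 passed the filter on low counts and were tested, and 3 of them were called. Elovl3 rose 3.79-fold, Elovl1 fell 1.46-fold and Fads1 fell 1.51-fold in HKO, while Elovl2, Elovl5, Fads2, Fads3 and Scd2 did not pass and Elovl7 was too low to test. Over all 14068 genes tested, the same rule (edgeR adjusted p under 0.05) called 3.99%, with 0.917% higher and 3.07% lower in HKO. DESeq2, run as an alternative, called the same 3 genes and Elovl2, 4 in all, against 6.14% of its 18100 genes (1.74% higher, 4.4% lower). The groups did not overlap for Elovl1, Elovl3 and Fads1, 3 of the 8 tested genes, against 5.37% of all tested genes (1.91% higher, 3.46% lower in HKO). The median log2 fold change of the 8 was -0.11, beside 0.01 over all tested genes, and the values ran from -0.71 to 1.92. Of the 8 changes, 4 were positive and 4 negative, with Fads2 turning negative when library totals replaced TMM.

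**Figure D1:**
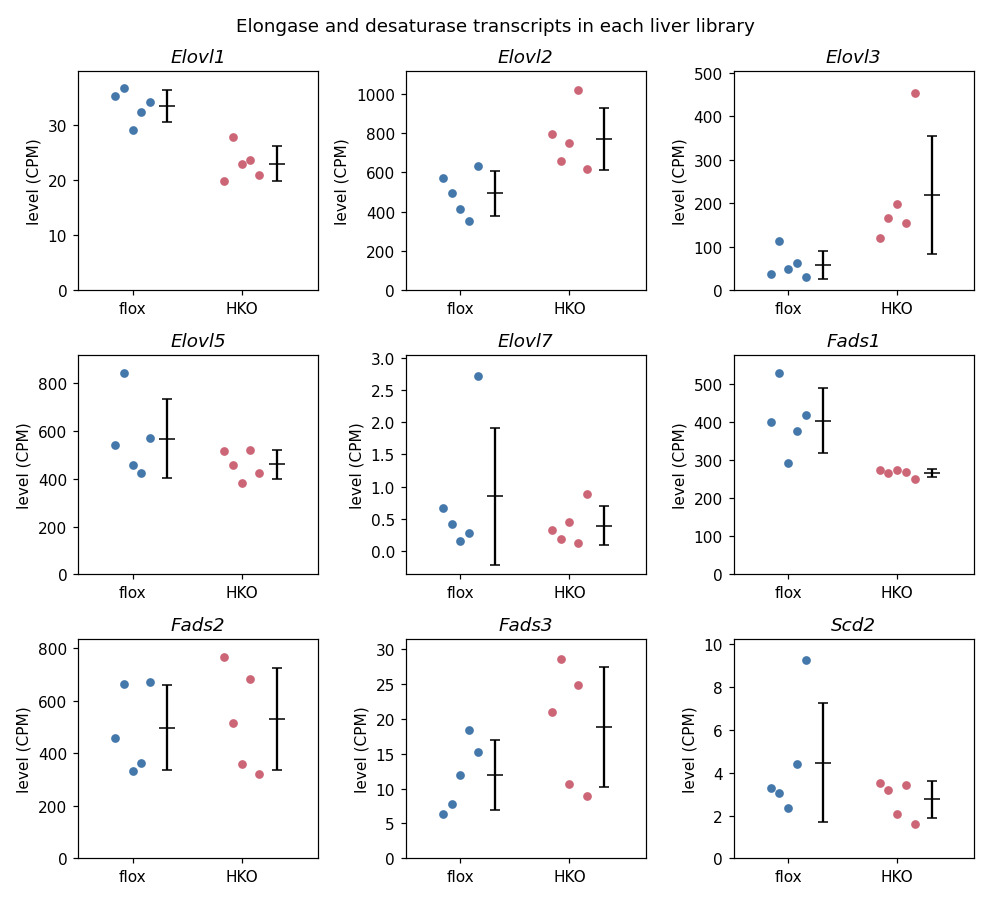
Level of each of the 9 genes (vertical axis, CPM, from 0 except for Elovl7, whose SD bar reaches below 0) in the 5 flox and 5 HKO libraries (points, replicates 1 to 5 from left to right), with the mean and SD as a bar. The groups are separated for Elovl1, Elovl3 and Fads1, and HKO replicate 5 stands at 454.1 CPM of Elovl3.

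**Figure D2:**
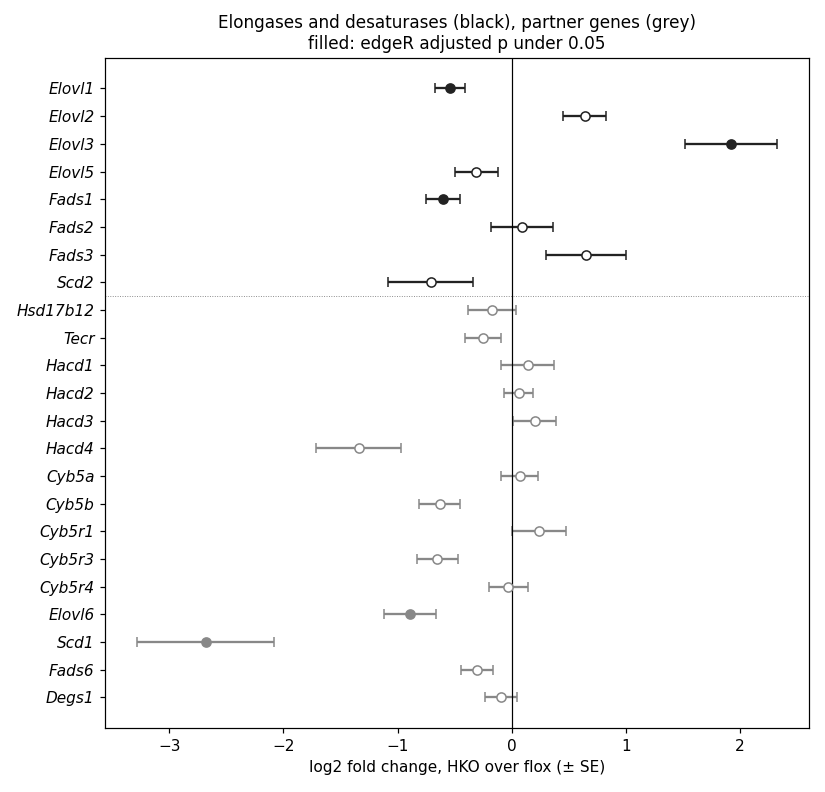
Log2 fold change of HKO over flox (horizontal axis, with SE) for the 8 tested elongases and desaturases (black) and 15 tested partner genes (grey), filled where the edgeR adjusted p was under 0.05. Elovl3 lies farthest to the right at 1.92 and Scd1 farthest to the left at -2.68.

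Per length of transcript, the genes of the polyunsaturated route were the most abundant. In flox, Elovl5 stood at 161.5 ± 46.8 CPM per kb (SD, n = 5), Fads2 at 151.3 ± 49.2, Elovl2 at 124.4 ± 28.7 and Fads1 at 83.8 ± 17.8 CPM per kb. Neighbours among these 4 overlapped between libraries, while Elovl5 (at least 121.0 CPM per kb) lay wholly above Fads1 (at most 109.9). Elovl3 followed at 29.2 ± 16.5 and Elovl1 at 12.3 ± 1.08 CPM per kb, each clear of its neighbours. Fads3 (3.14 ± 1.33), Scd2 (0.819 ± 0.509) and Elovl7 (0.213 ± 0.264 CPM per kb) were the lowest, and each overlapped the next. In HKO the order of the means changed to Elovl2 (193.6 ± 39.7), Fads2 (160.8 ± 59.1), Elovl5 (130.7 ± 16.9), Elovl3 (110.6 ± 68.2) and Fads1 (55.3 ± 2.05 CPM per kb). The leading 4 of these again overlapped their neighbours, while every Fads1 value in HKO lay below every Elovl3 value.

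Elovl3 (ENSMUSG00000038754, chromosome 19, 46120336 to 46124133, plus strand) encodes an elongase of saturated and monounsaturated very long chains, known from brown fat, skin and liver. Coordinates are those of the deposited table, whose build is uncertain. The flox libraries held 36.5, 111.7, 47.7, 61.9 and 30.6 CPM of Elovl3, and the HKO libraries 119.3, 165.7, 198.6, 154.8 and 454.1 CPM. Every HKO library lay above every flox library, though flox replicate 2 came close to HKO replicate 1. The means were 57.7 ± 32.5 and 218.5 ± 134.7 CPM (SD, n = 5 each), a log2 fold change of 1.92 ± 0.40 (SE, edgeR adjusted p = 0.0181). The call held in all 17 alternatives tried (adjusted p 0.000217 to 0.046), and without HKO replicate 5 the log2 fold change was 1.47.

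In mouse liver, Elovl3 is known as a gene expressed more in males and with a daily rhythm. Other male-biased liver genes also differed between the groups, with 7 of 14 rising, 0 falling and a median log2 fold change of 2.01. Over all tested genes, 0.917% were called higher in HKO. The lists of male-biased and female-biased genes were drawn up with earlier results of these data known, so their shifts are descriptive. Leaving out 1 library at a time gave 3 to 11 risen genes of the 14, the 3 without flox replicate 5 and the 11 without flox replicate 4. Cyp7b1, an oxysterol hydroxylase, went from 54.0 ± 16.9 to 249.7 ± 63.7 CPM (edgeR adjusted p = 0.000841), and the pheromone-binding urinary protein gene Mup20 from 686.9 ± 392.5 to 2393 ± 699.9 CPM (edgeR adjusted p = 0.0136). Of 15 female-biased genes, 7 were tested and 4 fell, beside 3.07% of all tested genes called lower. Among the 4 was the cytochrome Cyp2b9 (330.0 ± 197.8 to 1.86 ± 1.77 CPM, edgeR adjusted p = 0.000913). Cyp2b9, Hao2 and Cyp2a4, all among the 4, held only 154, 6 and 15 counts over the HKO libraries. They passed the filter on low counts through flox, where they were high, so their direction was largely fixed in advance. All 10 libraries carried Y-linked transcripts and little Xist, the RNA of the inactive X. Ddx3y on the Y chromosome stood at 88.8 ± 19.5 CPM in flox and 99.7 ± 12.7 CPM in HKO, and Xist at 0.284 ± 0.193 and 0.266 ± 0.218 CPM.

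Within a group, the order of libraries for Elovl3 was not the same as for the other male-biased genes, though it was alike in part of flox. The 14 other genes, averaged on the log2 scale after centring over the 10 libraries, were lowest in flox replicate 2 (-2.22), the library with the most Elovl3 in its group. They were highest for flox in replicate 4 (0.51), where Elovl3 was 61.9 CPM, below replicate 2 only. Flox replicate 5 had the least Elovl3 (30.6 CPM) and, but for replicate 2, the lowest average (-1.96). In HKO, replicate 5 had the lowest average (0.93) and the highest Elovl3. Clock genes gave 0 called of 17 tested (smallest edgeR adjusted p = 0.365). Their average spanned -0.04 to 0.29 across flox libraries and -0.29 to 0.14 across HKO libraries, but opposite shifts of single genes can cancel in it. Dbp ran from 19.6 to 129.5 CPM in flox and from 2.65 to 102.7 CPM in HKO. Arntl ran from 3.38 to 16.4 and from 1.23 to 22.7 CPM, while Hlf was steadier (81.2 to 102.4 and 69.0 to 91.2 CPM). The sources used here do not give the time of day at which livers were taken, and the part of either gene group in the rise of Elovl3 was not tested.

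**Figure D3:**
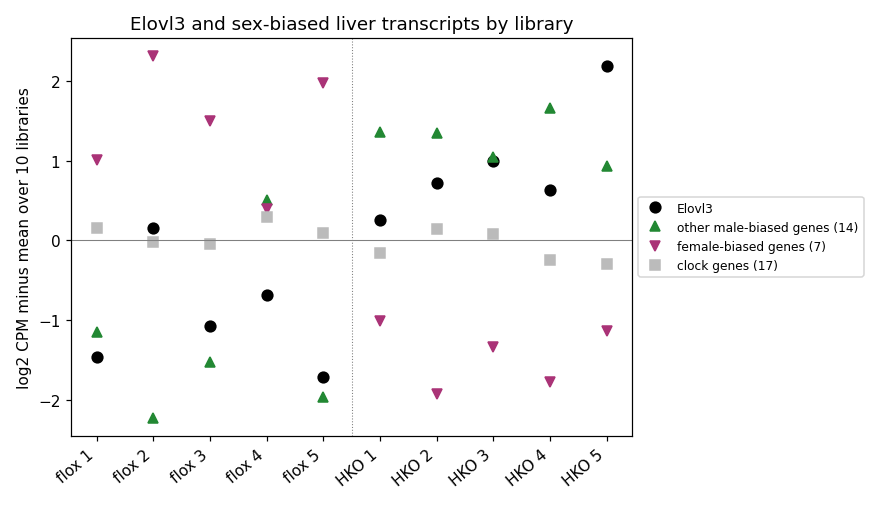
Log2 CPM minus its mean over the 10 libraries (vertical axis) for Elovl3, and the same averaged over 14 other male-biased genes, 7 female-biased genes and 17 clock genes, in each library (horizontal axis, flox left of the dotted line). In HKO the male-biased average lies between 0.93 and 1.66, and in flox between -2.22 and 0.51, with replicate 4 the highest.

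The genes whose pattern over the 10 libraries was most like that of Elovl3 were Pitx3, Nlrp12 and Rps6kl1, by the mean absolute difference of centred log2 CPM (0.37, 0.50 and 0.51 log2 units, the smallest of 11610 genes). Pitx3 lies on the other strand, with 1.03% as many counts. Its span begins at 46124124, so it shares only the last bases of Elovl3, which ends at 46124133. The sources used here do not say how reads of the shared bases were counted. Pitx3 rested on 46 counts in flox and 192 in HKO and did not pass (log2 fold change 2.10 ± 0.67 SE, edgeR adjusted p = 0.104). Nlrp12 rose from 33.5 to 56.0 CPM in flox to 106.0 to 121.7 CPM in HKO (log2 fold change 1.25 ± 0.15, edgeR adjusted p = 0.00123). The difference of Rps6kl1 did not pass (log2 fold change 0.92 ± 0.28, edgeR adjusted p = 0.093).

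Elovl1 (ENSMUSG00000006390, chromosome 4, 118285290 to 118290150, plus strand) encodes the elongase that supplies very long saturated chains to sphingolipids. Flox libraries gave 35.3, 36.8, 29.2, 32.4 and 34.2 CPM, and HKO libraries gave 19.9, 27.9, 22.9, 23.6 and 20.9 CPM. All HKO libraries lay below all flox libraries, with HKO replicate 2 just under flox replicate 3. The mean went from 33.6 ± 2.94 to 23.0 ± 3.07 CPM (SD, n = 5 each; log2 fold change -0.54 ± 0.13 SE, edgeR adjusted p = 0.0296). Leaving out any of flox replicates 2, 4 and 5 and HKO replicates 1, 3, 4 and 5 ended the call (adjusted p 0.0527 to 0.0857), as did fitting without a filter on low counts (0.0576). Over the fits with 1 library left out the log2 fold change ran from -0.62 to -0.49. DESeq2 gave an adjusted p of 0.00716, the lowest of the alternatives, whose range reached 0.0857.

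Elovl1 and Fads1 fell by similar amounts (log2 fold change -0.54 and -0.60), and the mean absolute difference used above takes in this group difference. In flox both were highest in replicate 2 and lowest in replicate 3. In HKO, Elovl1 was highest in replicate 2 (27.9 CPM), where Fads1 (265.3 CPM) was above replicate 5 only. Of 11610 other genes, Adcy9 and C4b differed least from Elovl1 (0.10 and 0.11 log2 units on average), and Fads1 was the third (0.13), against a median of 0.37. C4b, a complement component made by hepatocytes, went from 1407 to 1730 CPM in flox to 1017 to 1302 CPM in HKO (edgeR adjusted p = 0.0426, and above 0.05 in 10 of 17 alternatives). Adcy9 did not pass (edgeR adjusted p = 0.133). The fall of Elovl1 and Fads1 came with that of the macrophage markers above. Other non-hepatocyte marker lists also had negative median log2 fold changes (stellate cells and fibroblasts -0.67, sinusoidal endothelium -0.44), red blood cells (0.23) excepted. In flox, the centred log2 average of macrophage markers was highest in replicates 4 and 5 (1.49 and 1.46) and lowest in replicate 3 (0.10). Replicate 2, with the most Elovl1 and Fads1, had 0.75. In bulk tissue, fewer cells of a type and less RNA per cell cannot be told apart. The part of macrophages or other cells in the falls of Elovl1 and Fads1 was not tested.

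Fads1 (ENSMUSG00000010663, chromosome 19, 10160252 to 10174241, plus strand) encodes the desaturase that completes arachidonic and eicosapentaenoic acid. Across flox it measured 400.5, 528.8, 291.6, 376.1 and 419.0 CPM, and across HKO 274.4, 265.3, 272.5, 269.1 and 249.6 CPM. HKO libraries were all lower and lay close together, while flox libraries were spread. The mean fell from 403.2 ± 85.5 to 266.2 ± 9.88 CPM (SD, n = 5 each; log2 fold change -0.60 ± 0.15 SE, edgeR adjusted p = 0.045). This call is close to the threshold. It was kept without flox replicate 3 (0.017) and lost in each of the 9 other fits that left out 1 library (adjusted p 0.0616 to 0.11), with DESeq2 size factors in edgeR (0.0527) and without a filter on low counts (0.0658). DESeq2 itself gave 0.00931, and the alternatives ran from 0.00931 to 0.112. The most similar patterns were those of Pepd, Lrba and Gusb (0.10 log2 units each, median 0.39), none of which passed (edgeR adjusted p = 0.112, 0.0858 and 0.112).

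Fads2 (ENSMUSG00000024665, chromosome 19, 10040129 to 10079110, minus strand) encodes the desaturase that opens the polyunsaturated route and lies beside Fads1. Values were 458.0, 665.1, 334.4, 362.1 and 672.5 CPM for flox, with 765.4, 516.9, 361.4, 684.7 and 321.2 CPM for HKO. The groups covered nearly the same range. The log2 fold change was 0.09 ± 0.27 (SE, edgeR adjusted p = 0.918), and its sign turned with library totals in place of TMM (-0.03). Elovl5 (ENSMUSG00000032349, chromosome 9, 77824646 to 77891801, plus strand), the elongase that takes the product of FADS2, gave 543.6, 843.6, 458.1, 426.3 and 572.5 CPM across flox. Across HKO it gave 516.8, 456.6, 382.1, 520.6 and 424.8 CPM. These groups overlapped too, with flox replicate 2 far above the rest (log2 fold change -0.31 ± 0.19 SE, edgeR adjusted p = 0.455, and -0.12 without flox replicate 2).

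Elovl2 (ENSMUSG00000021364, chromosome 13, 41335857 to 41373881, minus strand) encodes the elongase on the way to docosahexaenoic acid. The 5 flox values were 570.8, 493.8, 413.9, 353.7 and 634.2 CPM, and the 5 HKO values 796.0, 656.0, 749.1, 1020 and 618.8 CPM. Only flox replicate 5 reached the HKO range, above HKO replicate 5. The means were 493.3 ± 113.6 and 767.9 ± 157.6 CPM (SD, n = 5 each). The log2 fold change of 0.64 ± 0.19 (SE) did not pass (edgeR adjusted p = 0.0852). It passed in DESeq2 (0.0242) and in no other alternative, over which the adjusted p reached 0.198.

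Ratios between these 4 genes within a library do not depend on how libraries are scaled, and all 6 were compared by an exact two-sided permutation test of their log2 values over the 252 assignments of the libraries. The ratios were chosen after the levels had been seen. Elovl2 counts over Elovl5 counts came to 1.05, 0.59, 0.90, 0.83 and 1.11 for flox, and to 1.54, 1.44, 1.96, 1.96 and 1.46 for HKO. Every HKO library was above every flox library, and the mean log2 ratio was 0.92 ± 0.19 (SE) higher in HKO (exact permutation p = 0.00794, the smallest this design allows, and 0.0238 adjusted over the 6 ratios). Elovl2 over Fads1 was 1.42, 0.93, 1.42, 0.94 and 1.51 in flox and 2.90, 2.47, 2.75, 3.79 and 2.48 in HKO. Here too the groups did not overlap, and the log2 difference was 1.22 ± 0.19 (SE, exact permutation p = 0.00794, adjusted 0.0238). With 1 library left out at a time, the log2 differences ran from 0.78 to 1.01 and from 1.12 to 1.30.

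The other 4 ratios overlapped between the groups. Fads1 over Fads2 averaged 0.84 ± 0.15 in flox and 0.56 ± 0.20 in HKO (SD, n = 5 each; exact permutation p = 0.0476, adjusted 0.0571). Elovl2 over Fads2 averaged 1.03 ± 0.21 and 1.56 ± 0.44 (exact permutation p = 0.0317, adjusted 0.0571), and Fads1 over Elovl5 0.72 ± 0.10 and 0.59 ± 0.08 (exact permutation p = 0.0397, adjusted 0.0571). For Elovl5 over Fads2 the values were 1.17 ± 0.19 and 0.94 ± 0.26 (exact permutation p = 0.143, adjusted 0.143). The groups were thus separated for Elovl2 against Elovl5 and against Fads1, while the other pairs did not pass after adjustment. Fads1 levels alone already separated the groups, and Elovl2 levels nearly did, in the opposite direction. A separated ratio of Elovl2 to Fads1 was therefore likely from the levels and is not a separate finding. Elovl5 levels overlapped but were also lower on average in HKO (log2 fold change -0.31). The ratio of Elovl2 to Elovl5 thus also follows in large part from the levels and is not a separate finding either. The adjustment does not allow for choosing the ratios after the levels had been seen, so these p-values are descriptive.

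**Figure D4:**
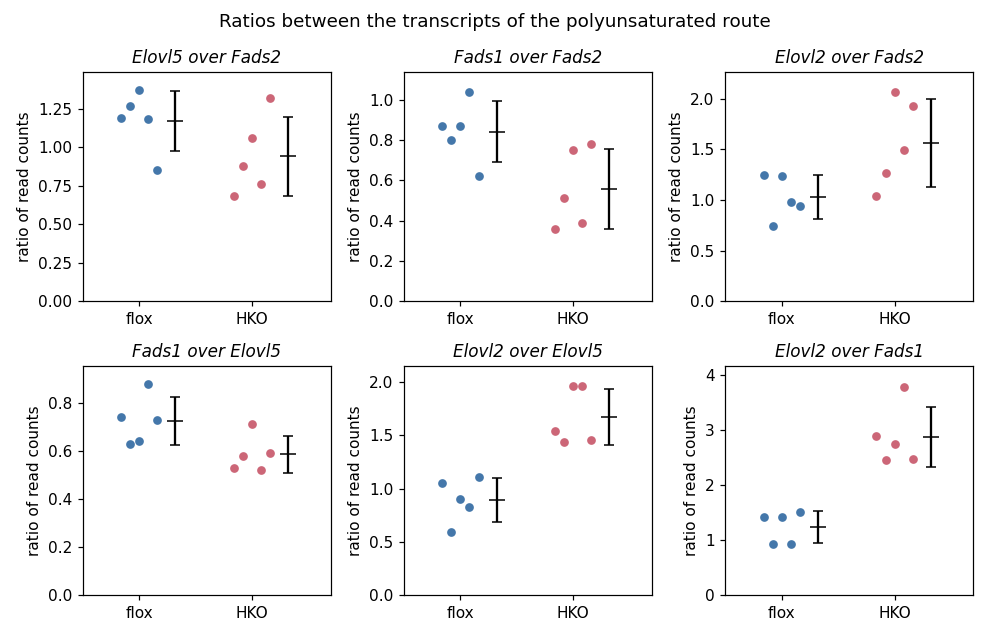
Ratio of read counts between Fads2, Elovl5, Fads1 and Elovl2 (vertical axis, from 0) in the 5 flox and 5 HKO libraries (points, replicates 1 to 5 from left to right), with the mean and SD as a bar. Elovl2 over Elovl5 spans 0.59 to 1.11 (flox) and 1.44 to 1.96 (HKO), and Elovl2 over Fads1 spans 0.93 to 1.51 and 2.47 to 3.79.

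Promoter sequence is shown for 3 elongases compared above. These are Elovl1, which fell, and Elovl2 and Elovl5, neither of which passed in the main comparison. The RefSeq promoter table used here matched 6 of the 9 genes by symbol, and Elovl3, Fads1 and Scd2 have no entry in it. Each line gives the 250 bases before the start site nearest to the annotated gene start, 5′ to 3′ on the strand of the gene, in build GRCm38.p6. Elovl1 is at chr4:118427843-118428092 (plus strand), Elovl2 at chr13:41220404-41220653 (minus strand) and Elovl5 at chr9:77917115-77917364 (plus strand). Capitals mark matches to a CCAAT box (CCAAT), an E-box (CACGTG) or a GC box (GGGCGG), on either strand.
Elovl1: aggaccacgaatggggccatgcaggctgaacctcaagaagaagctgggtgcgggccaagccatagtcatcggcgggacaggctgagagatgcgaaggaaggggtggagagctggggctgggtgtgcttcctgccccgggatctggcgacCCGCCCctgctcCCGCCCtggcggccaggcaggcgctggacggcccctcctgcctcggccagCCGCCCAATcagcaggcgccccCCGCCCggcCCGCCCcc
Elovl2: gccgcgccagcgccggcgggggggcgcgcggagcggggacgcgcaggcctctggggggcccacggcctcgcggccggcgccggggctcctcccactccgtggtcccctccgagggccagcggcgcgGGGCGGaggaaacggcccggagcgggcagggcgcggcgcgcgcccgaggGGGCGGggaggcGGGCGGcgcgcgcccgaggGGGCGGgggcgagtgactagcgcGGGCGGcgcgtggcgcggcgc
Elovl5: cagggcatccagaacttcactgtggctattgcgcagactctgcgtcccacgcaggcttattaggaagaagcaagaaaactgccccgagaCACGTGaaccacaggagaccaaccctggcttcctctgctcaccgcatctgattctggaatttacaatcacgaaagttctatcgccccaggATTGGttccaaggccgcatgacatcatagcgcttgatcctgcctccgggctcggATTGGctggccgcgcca

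Elovl1 held 5 GC boxes and 1 CCAAT box, which overlaps the GC box beside it, and Elovl2 held 5 GC boxes and no CCAAT box. Elovl5 had no GC box, 2 CCAAT boxes and 1 E-box. Of 32851 promoter windows of this length, 32.7% held a GC box, 33.8% a CCAAT box and 6.02% an E-box. Among the 6 windows of elongases and desaturases, 5 held a GC box, 3 a CCAAT box and 1 an E-box. None of the 6 held the SREBP element TCACNCCAC (1.05% of all windows), or direct repeats of AGGTCA spaced by 1 base of any kind (0.0335%) or by 4 (0.0152%), searched on both strands. GC content was 72.0% for Elovl1, 87.2% for Elovl2 and 55.6% for Elovl5, beside a median of 52.4%. A match in these letters is not a measured binding site, and its absence from a window this short says nothing of the factor.

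Fads3, Scd2 and Elovl7 were read at low levels. Fads3 (ENSMUSG00000024664, chromosome 19, 10018933 to 10037474, plus strand) encodes a desaturase of sphingoid bases and gave 6.30, 7.73, 12.0, 18.4 and 15.2 CPM for flox against 20.9, 28.5, 10.7, 24.8 and 8.98 CPM for HKO. The groups overlapped (log2 fold change 0.65 ± 0.35 SE, edgeR adjusted p = 0.371). Scd2 (ENSMUSG00000025203, chromosome 19, 44282113 to 44295303, plus strand), the stearoyl-CoA desaturase of brain and newborn liver, gave 3.30, 3.04, 2.35, 4.41 and 9.27 CPM for flox against 3.50, 3.21, 2.05, 3.41 and 1.60 CPM for HKO. Flox replicate 5 was the highest, and the log2 fold change of -0.71 ± 0.37 (SE, edgeR adjusted p = 0.364) became -0.25 without it. Elovl7 (ENSMUSG00000021696, chromosome 13, 108350938 to 108422217, plus strand) rested on 80 counts in flox and 33 in HKO, of which 54 were in flox replicate 5. That library also had the highest stellate cell and cholangiocyte marker sums (238.6 and 162.8 CPM), whose part in the Scd2 and Elovl7 values was not tested. It was not tested in the main comparison, and DESeq2 and edgeR without a filter gave adjusted p of 0.506 and 0.509.

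Scd2 and Fads3 share sequence with far more abundant relatives. The longest identical run between transcripts of Scd2 and Scd1 was 147 bases, and between Fads3 and Fads2 54 bases, while no other pair among the 9 genes and Scd1 shared more than 23. Scd1 was read at 3276 to 17928 CPM in flox and 440.9 to 3314 CPM in HKO. Scd2 did not track it, at 3.04 CPM in the flox library with the most Scd1 and 3.21 CPM in the HKO library with the least. Fads3 and Fads2 were both lowest for HKO in replicates 3 and 5, whereas in flox Fads3 was highest in replicate 4, where Fads2 was 362.1 CPM. The sources used here do not say how reads that match several genes were counted. None of the 9 genes had another gene with at least 95% identity over at least 50% of its longest transcript.

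The partner genes of elongation and desaturation mostly did not pass. Of 19 listed, 15 were tested, 2 fell, 0 rose and 13 did not pass, with a median log2 fold change of -0.17. Both called genes are desaturases or elongases of the lipogenic core. Scd1, the main stearoyl-CoA desaturase of adult liver, had a log2 fold change of -2.68 ± 0.60 (SE, edgeR adjusted p = 0.0242), and Elovl6, which lengthens palmitate to stearate, went from 51.6 ± 11.9 to 27.8 ± 8.61 CPM (edgeR adjusted p = 0.0416). The groups overlapped for both genes. Scd1 was not called with robust dispersion (edgeR adjusted p = 0.0732) or with the replicate block (0.0558). With 1 library left out, Scd1 missed the threshold on leaving out HKO replicate 1, 2, 4 or 5 or flox replicate 2, where its adjusted p reached 0.0656. Elovl6 passed only without flox replicate 3 or HKO replicate 4, and its adjusted p reached 0.104 in the other 8 fits.

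None of the 6 genes for the other steps of the elongation cycle passed. The ketoreductase Hsd17b12 stood at 158.9 ± 39.5 CPM in flox and 141.0 ± 39.3 CPM in HKO, and the dehydratase Hacd3 at 213.2 ± 22.1 and 245.4 ± 70.8 CPM. At a lower level, the dehydratase Hacd4 went from 2.52 ± 1.19 to 0.997 ± 0.312 CPM (edgeR adjusted p = 0.0598). None of 5 electron donors passed. Cyb5a, the microsomal cytochrome b5, had a log2 fold change of 0.07 ± 0.16 (SE), while the reductase Cyb5r3 (330.5 ± 70.8 to 210.9 ± 40.3 CPM, edgeR adjusted p = 0.0618) and the outer mitochondrial membrane form Cyb5b (328.2 ± 62.0 to 211.6 ± 50.4 CPM, 0.0749) missed the threshold. Hacd4, Cyb5r3 and Cyb5b passed, all lower, in DESeq2 and with library totals in place of TMM.

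Around the pathway, 0 of 9 tested genes of fatty acid activation passed (smallest edgeR adjusted p = 0.0649). That smallest value belonged to Slc27a2, a very long chain acyl-CoA synthetase, which stood at 1774 ± 221.1 CPM in flox and 2571 ± 265.3 CPM in HKO with no overlap between libraries. Slc27a2 passed in DESeq2 (adjusted p = 0.00272) and in no other of its 17 alternatives, over which the adjusted p reached 0.153. Abcd2, which imports very long chain acyl-CoA into peroxisomes, where docosahexaenoic acid is completed by chain shortening, fell from 53.7 ± 14.3 to 23.2 ± 8.52 CPM (edgeR adjusted p = 0.0283, called in 11 of 17 alternatives). Leaving out flox replicate 1, 2 or 5 or HKO replicate 4 or 5 ended the Abcd2 call (adjusted p up to 0.0702).

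Of 11 tested genes that place polyunsaturated chains in phospholipids or release them, 2 fell. They were Lpcat2, an acyltransferase of myeloid cells (3.30 ± 1.44 to 0.967 ± 0.600 CPM, edgeR adjusted p = 0.0293), and the phospholipase Pla2g4a (1.61 ± 0.664 to 0.435 ± 0.213 CPM, edgeR adjusted p = 0.0242). Both were read at low levels, Lpcat2 with 299 counts in flox and 77 in HKO. Pla2g4a rested on 143 and 35, with as few as 3 in an HKO library. Leaving out flox replicate 5 or HKO replicates 1, 2 or 5 ended both calls, as did HKO replicate 4 for Lpcat2 (adjusted p up to 0.0788) and flox replicate 4 for Pla2g4a (up to 0.0646). Lpcat3, the hepatocyte enzyme that favours arachidonate, had a log2 fold change of 0.22 ± 0.15 (SE, edgeR adjusted p = 0.505). Ceramide synthases, only some of which use very long chains, gave 0 called of 4 tested (smallest edgeR adjusted p = 0.184, for Cers6). Cers2 stood at 285.0 ± 28.8 CPM in flox and 241.6 ± 17.1 CPM in HKO.

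Among 15 regulators of these genes, 0 passed. Srebf1, which encodes SREBP1c, gave 133.8, 253.6, 119.0, 260.4 and 300.8 CPM for flox and 109.7, 160.0, 46.9, 73.7 and 60.2 CPM for HKO. Only HKO replicate 2 lay inside the flox range (log2 fold change -1.24 ± 0.34 SE, edgeR adjusted p = 0.059, and 0.00642 to 0.149 over the alternatives, 7 of which called it). Mlxipl, which encodes ChREBP, had a log2 fold change of 0.08 ± 0.27, which was -0.04 with library totals. Nr1h3, which encodes LXR-alpha, had -0.07 ± 0.13, and Ppara had -0.09 ± 0.20, which was 0.02 without flox replicate 5 (SE; edgeR adjusted p = 0.93, 0.854 and 0.882 for these 3 genes).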

How the data were processed

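Total RNA of 10 liver samples was sequenced as VAHTS Universal V6 libraries, per the labels' protocols. The deposited table holds each gene's raw read counts, with no scaling. The submitters' processing notes name mm10 and DESeq2. The sources used here do not give aligner, counter, annotation, strand use or read length. Of 52073 gene identifiers found in GENCODE M21 (GRCm38), 2.83% had the same start and end, and 0 of the 9 genes did, so the build of the table's coordinates is uncertain. Gene length is the deposited table's column.

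Genes were tested for HKO over flox in edgeR 4.0.16 (R 4.3.3; quasi-likelihood F-test, two-sided) with TMM scaling and filterByExpr on all 10 libraries. P-values were adjusted by Benjamini-Hochberg over the 14068 genes tested, with a threshold of 0.05. The SE was taken as the size of the log2 fold change divided by the root of F. Log2 CPM used a prior count of 2. DESeq2 1.42.0, other scalings and filters, robust dispersion, a replicate block and leaving out each library were the 17 alternatives. Permutation tests used scipy 1.17.1 and transcripts were compared with BLAST 2.17.0. On simulated counts with 200 changed genes, the gene test recovered 48% of 2-fold and 92.9% of 4-fold changes. Of its 153 calls there, 13 were false. A gene that did not pass may therefore still have changed.

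The 9 genes, the lists and the tests were chosen with earlier results of these data known. The named genes were the 9, Acss2, Scd1, Elovl6 and 4 regulators. Added to these were, per list, up to 4 called genes of smallest p or else the 2 of highest level, and the 3 genes of at least 1 CPM most like each called gene. Gss, Hacd4, Cyb5b, Lpcat3, Xist, Dbp, Arntl and Hlf were named after their values were seen. Some results of the peroxisomal list are not reported here. The labels do not state that each library came from a separate animal, so p-values measure the spread between these samples, which may be technical. Pairs of libraries within a group differed by more than sampling noise (chi-square per degree of freedom of at least 24.6). A count of 3 was worth 0.156 to 0.195 CPM.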

Additional observations from a re-analysis of the deposited data

Results flagged for a closer look

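Elovl3 in HKO replicate 5 stood at 454.1 CPM, far above the next HKO library at 198.6 CPM (gap over range 0.763, limit 0.71 for 5 libraries). Elovl7 in flox replicate 5 stood at 2.72 CPM, above the next flox library at 0.673 CPM (gap over range 0.801). These were 2 of 18 groups of libraries examined. Chance alone would flag about 1 in 20 such groups if values were normally spread, which was not checked. Gaps were taken on CPM and not on a log scale, where high values stand out less.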

How the results depend on the processing

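Of the 3 calls, only that of Elovl3 was present in all 17 alternatives. The count of called elongases and desaturases was 1, Elovl3 alone, without a filter on low counts and with the replicate block, and ran from 1 to 3 with 1 library left out. The count of called partner genes was 5 in DESeq2 and with library totals, 1 with robust dispersion and with the replicate block, and 0 to 4 with 1 library left out. Acss2 passed in DESeq2 (log2 fold change -0.70), with library totals (-0.80), without a filter (-0.70) and without flox replicate 3, among values of -0.81 to -0.47 with 1 library left out. Library totals moved the median of all genes from 0.01 to -0.10. Among the named genes, the only ones followed for this, they turned 4 uncalled genes negative, Fads2 (-0.03), Mlxipl (-0.04), Cyb5a (-0.03) and Hnf4a (-0.01). With 1 library left out, signs also turned within the ranges of Fads2 (-0.08 to 0.23), Mlxipl (-0.12 to 0.28), Ppara (-0.21 to 0.02), Cyb5a (-0.02 to 0.16) and Hnf4a (-0.02 to 0.22). The cause of these changes was not tested. Over all genes, edgeR called 561, DESeq2 1112, and edgeR 289 to 673 with 1 library left out. Flox and HKO libraries share replicate numbers but were not paired by them. Deviations of same-numbered libraries correlated between -0.12 and 0.24, and 0 of 5 flox libraries correlated best with their own number. With the replicate block 448 genes were called, and the Elovl1 and Fads1 calls were lost (edgeR adjusted p = 0.0593 and 0.112). Depth limits Elovl7, which had as few as 2 counts in a library.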

Other observations

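Fads2 and Fads3, neighbours on chromosome 19, were both lowest in the same HKO libraries. In HKO replicates 3 and 5 Fads3 was 10.7 and 8.98 CPM against 20.9 to 28.5 CPM in the other HKO libraries, and Fads2 was 361.4 and 321.2 CPM against 516.9 to 765.4 CPM. Their transcripts share an identical run of 54 bases, and the sources used here do not say how reads matching both genes were counted, so their counts may not be fully separate. In flox the order was not shared, since Fads3 was highest in replicate 4 (18.4 CPM), where Fads2 was 362.1 CPM. Within 200 kb of Fads1, Fads2 and Fads3, 0 of 8 other tested genes were called, with a median log2 fold change of -0.19. Around the Scd genes 0 of 8 were called, with a median of 0.04.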
